A study of Mus musculus with 51 samples.

Results

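Dmp1, Ibsp, Mepe and Spp1 are neighbouring genes of the SIBLING family (small integrin-binding ligand, N-linked glycoproteins), the secreted phosphoproteins of mineralized matrix. The 4 genes were picked by name, among 23358 gene entries in each femur RPKM (reads per kilobase of gene, scaled to the mapped reads of a library) table of the vitamin C (VitC) mice and 25938 genes in the normalized count table of the Tet knockout mice, and all 4 lay above the filter on low values in every library. The femurs came from C57BL/6 mice in groups of 3 and had been flushed of marrow before RNA was taken. WT mice make their own VitC. VitC+ and VitC+/- mice both carried Gulotm1Mae, an allele that ends VitC synthesis, and received VitC in the drinking water until 20 weeks of age (VitC+) or until 15 weeks only (VitC+/-), with bone taken at 20 weeks. The Tet groups, aged 11 weeks, all carried a Prrx1-Cre transgene, which is active in limb mesenchyme: Ctrl mice had unmodified Tet alleles, and Tet1 cKO, Tet2 cKO and Tet1/2 cKO mice had floxed Tet1, floxed Tet2 or both. Peak lists of 5-hydroxymethylcytosine (5hmC), the base that TET enzymes make from methylated cytosine, were available for femurs of VitC+, VitC+/-, Ctrl and Tet1/2 cKO mice, each pooled from 3 libraries. Further lists of 5hmC (day 28 of culture), H3K27me3 and H3K9me3 came from MC3T3-E1 cells, a mouse calvarial pre-osteoblast line grown with or without VitC, each pooled from 2 libraries.

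The SIBLING proteins are acidic, heavily phosphorylated and bind mineral and cell-surface integrins through an Arg-Gly-Asp motif. Spp1 (osteopontin) is made by many cells, including osteoblasts, osteoclasts and macrophages, and restrains crystal growth. Ibsp (bone sialoprotein) is made by osteoblasts and promotes mineral nucleation. Dmp1 (dentin matrix protein) and Mepe (matrix extracellular phosphoglycoprotein) are best known from osteocytes, where Dmp1 restrains the phosphate-regulating hormone FGF23 and Mepe fragments inhibit mineralization. VitC is a cofactor of the TET enzymes and of the enzymes that hydroxylate collagen.

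The cluster lies on the plus strand of mouse chromosome 5 (build GRCm38, mm10), in the order Dspp, Dmp1, Ibsp, Mepe, Spp1 and Pkd2. Dmp1 spans chr5:104202617-104214102, Ibsp chr5:104299287-104311472, Mepe chr5:104325329-104338611 and Spp1 chr5:104435111-104441053. The gaps between them measure 85.2 kb, 13.9 kb and 96.5 kb, so Ibsp and Mepe are close neighbours and the pair of genes that moved in opposite directions, Dmp1 and Spp1, stand at the ends of a 238 kb stretch. The 250 bases before each gene start are printed here because Dmp1 and Spp1 share this neighbourhood but differed in direction after VitC withdrawal. They are read from the RefSeq genome GRCm38.p6, plus strand, in lower case with every CG in capitals, since 5hmC in somatic tissue sits mostly at CG.
Dmp1 promoter, chr5:104202367-104202616: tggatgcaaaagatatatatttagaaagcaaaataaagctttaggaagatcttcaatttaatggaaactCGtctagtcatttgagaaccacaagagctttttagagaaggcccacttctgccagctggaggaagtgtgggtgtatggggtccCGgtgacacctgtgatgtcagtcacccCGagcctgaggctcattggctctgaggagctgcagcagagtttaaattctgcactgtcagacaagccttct
Ibsp promoter, chr5:104299037-104299286: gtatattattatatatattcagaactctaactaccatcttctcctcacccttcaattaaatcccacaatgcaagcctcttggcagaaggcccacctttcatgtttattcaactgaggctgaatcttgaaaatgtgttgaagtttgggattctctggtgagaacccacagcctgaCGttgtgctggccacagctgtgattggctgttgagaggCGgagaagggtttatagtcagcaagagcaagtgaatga
Mepe promoter, chr5:104325079-104325328: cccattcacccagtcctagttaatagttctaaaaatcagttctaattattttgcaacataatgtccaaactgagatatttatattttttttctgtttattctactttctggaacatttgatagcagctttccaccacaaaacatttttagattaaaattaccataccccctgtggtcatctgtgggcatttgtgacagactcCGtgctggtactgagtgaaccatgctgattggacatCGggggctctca
Spp1 promoter, chr5:104434861-104435110: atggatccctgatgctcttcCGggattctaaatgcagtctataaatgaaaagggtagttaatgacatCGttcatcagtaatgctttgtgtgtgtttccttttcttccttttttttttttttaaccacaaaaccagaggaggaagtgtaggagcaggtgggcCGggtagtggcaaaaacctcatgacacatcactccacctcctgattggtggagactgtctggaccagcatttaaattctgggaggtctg

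All 4 promoters were poor in CG. Dmp1 held 3 CG in 250 bases, Ibsp 2, Mepe 2 and Spp1 3, against a median of 6 (quartiles 2 and 16) over the 32807 RefSeq promoters of the same length. The letters CCAAT, read on both strands, occurred on the reverse strand of all 4 promoters, at 57 bases before the Dmp1 start, 54 before Ibsp, 21 before Mepe and 46 before Spp1, and 33.8% of all promoters of this length held them. TGTGGT, the core letters of Runx binding, occurred on the reverse strand 164 bases before Dmp1, 118 before Mepe and 128 before Spp1. It also occurred on the forward strand 80 bases before Mepe, with no match before Ibsp (14.0% of all promoters, either strand). TATAAA occurred on the reverse strand 28 bases before Ibsp and 173 before Mepe, and on the forward strand 211 before Spp1. Dmp1 had no match (12.4% of all promoters, either strand). None of these matches overlapped another. RefSeq also has a start of Dmp1 at 104197575, with CCAAT 101 bases before it and neither other motif, and a start of Spp1 at 104436192 with none of the 3. They describe letters in a window and show no binding.

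The labels were checked before the cluster was read. Gulo, the gene the allele disrupts, was listed at 0 RPKM in WT replicate 3, against 0.486 and 0.522 in the other WT libraries, and VitC+ replicate 1 held more (0.180 RPKM) than the 5 other Gulotm1Mae libraries (0.0126 to 0.0352). Fits without both are therefore quoted beside the main fits where VitC+/- was compared with VitC+ or WT. The ratios and marker lists include these libraries. The floxed Tet alleles lose 1 exon, so counts over a whole gene check nothing there. Tet1 read 374 to 435 normalized counts in Ctrl and 532 to 773 in Tet1 cKO, and Tet2 read 2236 to 2512 in Ctrl and 1834 to 2245 in Tet2 cKO. WT replicate 1 was the shallowest library, at 0.215 of the depth of WT replicate 2. The other VitC libraries lay between 0.881 and 1.34 of it. Osteoblast and osteocyte markers were detected in all groups. No 2 libraries were identical, and whether replicates were separate mice rests on the study's statement of biological triplicates.

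Withdrawal of VitC moved the ends of the cluster apart. Between VitC+ and VitC+/- femurs Dmp1 fell 2.41-fold and Spp1 rose 2.43-fold, whereas Mepe and Ibsp did not pass the test. Levels are RPKM after scaling each library by a median-of-ratios factor of 0.757 to 1.10, and differences are log2(RPKM + 0.5) fitted with limma over 9 libraries and 12586 entries, with Benjamini-Hochberg adjustment. Of all entries tested, 13.4% passed an adjusted p of 0.05 in this comparison, 7.52% lower and 5.93% higher, and the median log2 difference over all of them was 0.02.

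Dmp1, a marker of maturing osteocytes, read 62.3, 84.8 and 90.0 scaled RPKM with VitC kept (VitC+) and 29.7, 28.9 and 38.5 after withdrawal (VitC+/-). Every VitC+/- library was below every VitC+ library. Such a lack of overlap, in either direction, was seen for 40.5% of all entries. The means were 79.0 ± 14.7 and 32.4 ± 5.31 (SD, n = 3), and the log2 difference was -1.27 (SE 0.27, 95% interval -1.88 to -0.66, limma adjusted p = 0.0186). WT libraries read 40.9, 20.7 and 20.6, around the VitC+/- level, so that the VitC+ group stood above both other groups. The difference held its sign in all 14 alternatives and passed the threshold in 9 of them. It missed the threshold on unscaled RPKM (-1.15, limma adjusted p = 0.0504), without WT replicate 3 and VitC+ replicate 1 (-1.43, limma adjusted p = 0.0572), and without VitC+/- replicate 1, VitC+ replicate 2 or VitC+ replicate 3 (limma adjusted p = 0.0705, 0.0721 and 0.0711).

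Spp1, the most abundant member, read 1356, 1443 and 1406 scaled RPKM in VitC+ and 4186, 2277 and 4122 in VitC+/- femurs. The VitC+ libraries were tightly grouped (SD 43.3), and VitC+/- replicate 2 stood well below its group mates yet above every VitC+ library. The log2 difference was 1.28 (SE 0.28, 95% interval 0.66 to 1.90, limma adjusted p = 0.0192, n = 3 per group). As shares of the summed RPKM of a library, Spp1 made up 0.0875 to 0.128% in WT, 0.370 to 0.407% in VitC+ and 0.707 to 1.32% in VitC+/-, where it ranked 2, 4 and 7 among all entries. The sign held in all 14 alternatives and the call in 8. The call was missed with no filter on low values (1.28, limma adjusted p = 0.0592), without WT replicate 3 and VitC+ replicate 1 (1.26, limma adjusted p = 0.115), and without VitC+/- replicate 1, VitC+ replicate 1, VitC+ replicate 2 or VitC+ replicate 3 (limma adjusted p = 0.0776, 0.0624, 0.0681 and 0.0633).

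Ibsp, the mineral nucleator, read 418, 609 and 945 scaled RPKM in VitC+ and 953, 317 and 1197 in VitC+/-. The groups overlapped, since VitC+/- held both the lowest and the highest of these libraries. The log2 difference of 0.20 (SE 0.52, limma adjusted p = 0.829) had a 95% interval from -0.98 to 1.37. Its sign turned in 4 of 14 alternatives, among them the fit without WT replicate 3 and VitC+ replicate 1 (-0.09).

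Mepe, whose fragments inhibit mineralization, was the lowest member, at 47.2, 54.3 and 16.5 scaled RPKM in VitC+ and 26.1, 13.7 and 24.4 in VitC+/-. A single VitC+ library, replicate 3, fell within the VitC+/- range and made the groups overlap. The log2 difference was -0.75 (SE 0.55, 95% interval -1.98 to 0.49, limma adjusted p = 0.388), below 0 in all 14 alternatives and past the threshold in none. Dspp, the dentin member of the cluster, was listed at 0 in 6 of the 9 libraries and at no more than 0.018 RPKM elsewhere.

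**Figure D1:**
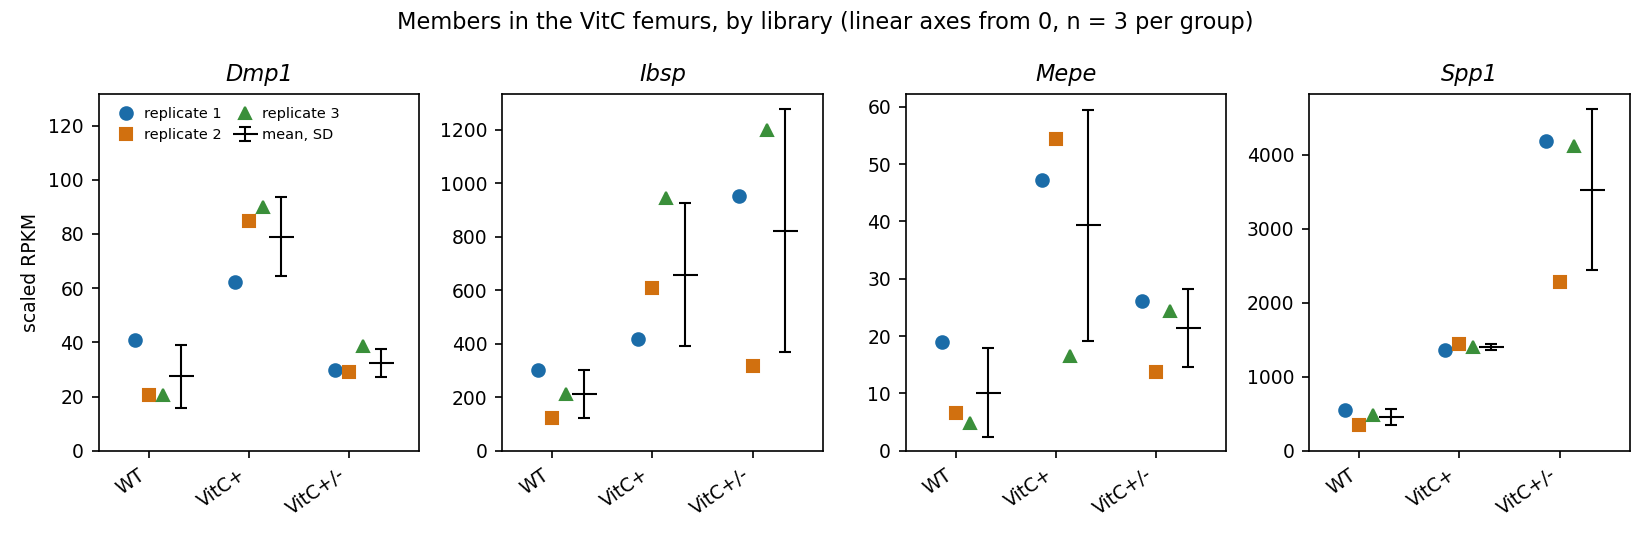
Scaled RPKM of each member in every WT, VitC+ and VitC+/- femur library, with circles, squares and triangles for replicates 1, 2 and 3 and a bar for the mean ± SD (n = 3). Dmp1 was highest in VitC+ and Spp1 in VitC+/- femurs, without overlap between these groups, whereas Ibsp and Mepe overlapped.

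Compared with WT femurs, the femurs after withdrawal stood higher for the abundant members. Spp1 rose 7.56-fold, from 543, 342 and 488 scaled RPKM in WT, a log2 difference of 2.92 (SE 0.28, 95% interval 2.30 to 3.54, limma adjusted p = 0.000347, n = 3 per group), and it passed in all 14 alternatives. Ibsp rose 3.58-fold from 303, 121 and 213 scaled RPKM, a log2 difference of 1.84 (SE 0.52, 95% interval 0.67 to 3.02, limma adjusted p = 0.0261). For these genes every VitC+/- library exceeded every WT library, which also held, in either direction, for 42.7% of all entries. Of all entries 31.3% passed in this comparison, 15.9% lower and 15.3% higher. The Ibsp call was missed with no filter on low values (1.84, limma adjusted p = 0.0531), without WT replicate 3 and VitC+ replicate 1 (1.89, limma adjusted p = 0.0840), and without VitC+/- replicate 1, VitC+/- replicate 3, WT replicate 2 or WT replicate 3 (limma adjusted p = 0.0896, 0.0835, 0.0736 and 0.0682). Mepe (19.0, 6.50 and 4.91 scaled RPKM in WT) differed by 1.22 on the log2 scale (95% interval -0.01 to 2.46, limma adjusted p = 0.118). Dmp1 differed by 0.30 (95% interval -0.31 to 0.91, limma adjusted p = 0.424). Without WT replicate 1, the shallow library, Mepe (1.78) and Dmp1 (0.63) passed, at limma adjusted p = 0.0251 and 0.0412.

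The question whether Gulotm1Mae mice kept on VitC resemble WT mice in this cluster was addressed by setting WT against VitC+. The fitted means of all 4 members were lower in WT, with log2 differences of -1.57 for Dmp1, -1.65 for Ibsp, -1.97 for Mepe and -1.64 for Spp1. None passed (limma adjusted p = 0.0746, 0.134, 0.112 and 0.0746), and 0% of the 12586 entries did, although 2769 had an unadjusted p under 0.05. Dmp1, Ibsp and Spp1 libraries did not overlap between these groups, as for 28.7% of all entries. Without WT replicate 1, Dmp1 (-1.90), Mepe (-2.52) and Spp1 (-1.78) passed, at limma adjusted p = 0.0381, 0.0389 and 0.0381, and 619 entries did in all. Of 14 alternatives Dmp1, Mepe and Spp1 each passed in 2 and Ibsp in 0. The highest limma adjusted p among them was 0.637 for Dmp1, 0.654 for Ibsp, 0.680 for Mepe and 0.637 for Spp1. The comparisons share the VitC+, VitC+/- or WT libraries, so they are given side by side and not set against each other. The order of members was the same in all 9 libraries, Spp1 above Ibsp above Dmp1 above Mepe in RPKM. Over these libraries the ranges of Spp1 and Ibsp overlapped, as did those of Dmp1 and Mepe, while Ibsp (at least 121) stayed above Dmp1 (at most 90.0).

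Ratios within a library are free of the scaling factor. The log2 ratio of Dmp1 to Spp1, both in RPKM, was -4.12 ± 0.42 in WT, -4.17 ± 0.25 in VitC+ and -6.73 ± 0.42 in VitC+/- (SD, n = 3). The individual VitC+/- libraries read -7.14, -6.30 and -6.74, all below every WT and VitC+ library, and the means of VitC+/- and VitC+ differed by -2.56. The Mepe to Spp1 ratio averaged -5.73 ± 0.90, -5.33 ± 0.94 and -7.37 ± 0.04, a difference of -2.04 between VitC+/- and VitC+ with no overlap. The Ibsp to Spp1 ratio averaged -1.18, -1.17 and -2.25, lower after withdrawal. Its groups narrowly did not overlap, with the highest VitC+/- library at -1.78 and the lowest VitC+ library at -1.70. Dmp1 relative to Ibsp averaged -2.94, -2.99 and -4.47, and Mepe relative to Ibsp -4.55, -4.16 and -5.11, the latter with overlap. The mean log2 level of Dmp1 and Mepe, less that of Ibsp and Spp1, was -4.33 ± 0.60 in WT, -4.16 ± 0.64 in VitC+ and -5.92 ± 0.43 in VitC+/-. That last difference from VitC+ was -1.76 and lay between -2.13 and -1.57 when any of the 6 libraries was left out, an alternative chosen after seeing the data. The ratios to Spp1 share that denominator, so its rise enters each of them and they are not separate findings. All these ratios were formed after the members' values were known and carry no test. How often ratios of other genes lack overlap was not counted, and between VitC+/- and VitC+ 40.5% of single entries did.

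**Figure D2:**
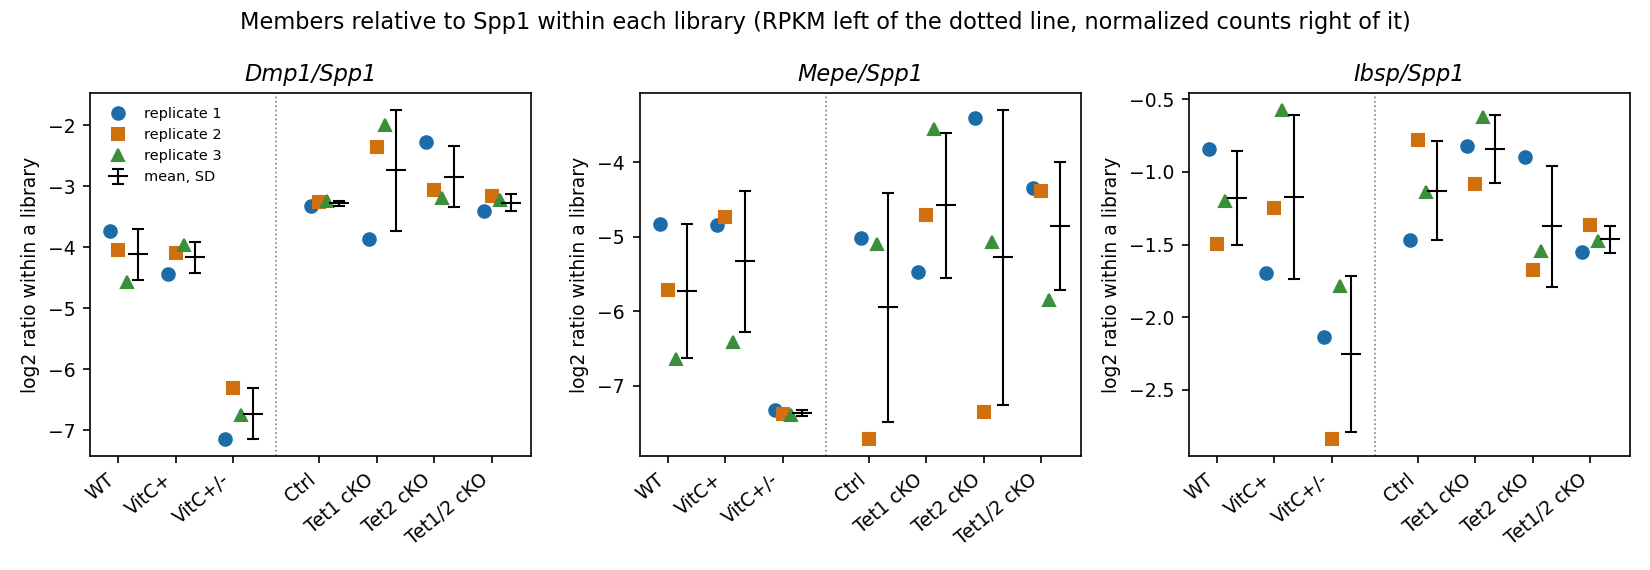
Log2 ratios of Dmp1, Mepe and Ibsp to Spp1 within each library, for the VitC femurs (left of the dotted line, from RPKM) and the Tet femurs (right, from normalized counts, which are not per length), with the mean ± SD (n = 3). The VitC+/- libraries lie below the WT and VitC+ libraries in all 3 ratios, narrowly for Ibsp to Spp1, whereas Tet1/2 cKO lies at the Ctrl level for Dmp1 to Spp1 (-3.27 and -3.28). All 3 ratios share Spp1 as denominator, so its rise enters each of them.

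In RNA from whole bone, fewer cells of a type and less RNA per cell cannot be told apart, and markers of several cell types moved together with the members. Of 9 osteocyte markers 7 fell and none rose between VitC+ and VitC+/- (median log2 difference -1.72), among them Phex (-2.56), the Wnt inhibitors Dkk1 (-2.12) and Sost (-1.84), and Pdpn (-2.04). Their summed level was 96.3 to 107 scaled RPKM in VitC+, 39.5 to 60.8 in VitC+/- and 51.0 to 60.4 in WT, highest in VitC+ as for Dmp1. Of 14 osteoblast markers 7 fell, none rose and all lay below 0 (median -2.36), including the osteocalcin genes Bglap (-7.53) and Bglap2 (-6.60). They summed to 4986 to 10609, 364 to 3325 and 936 to 3758 scaled RPKM in the same order of groups. Of 12 osteoclast markers 6 rose and none fell (median 0.72), among them Calcr (1.64), Mmp9 (1.37), Ctsk (1.29) and Tcirg1 (1.08), summing to 2053 to 2729, 3147 to 6727 and 892 to 986, the same order of groups as Spp1. Of 9 macrophage markers, a further source of Spp1, 2 rose, among them Csf1r (0.70), and none fell (median 0.56, sums of 269 to 391, 394 to 476 and 195 to 292). No marker of these lists was at 0 in every library. The part of these cells in the Dmp1 and Spp1 differences was not tested.

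Markers of tissues that share the femur also differed. The femurs had been flushed, yet marrow markers were abundant. Neutrophil markers summed to 52654 to 74603 scaled RPKM in WT, 29423 to 46895 in VitC+ and 7187 to 24055 in VitC+/-, an order opposite to that of Spp1. Of 10 neutrophil markers Ltf (-2.23) and Mmp8 (-1.62) fell between VitC+ and VitC+/- (median -1.09). Of 8 B-cell precursor markers 7 fell (-2.10), among them Vpreb3 (-4.25) and Igll1 (-3.83), and of 6 chondrocyte markers Col2a1 (-3.57) and Col9a2 (-2.81) fell (-1.89). Of 11 adipocyte markers Plin4 (2.85) and Pnpla2 (1.96) rose (median 1.96), and of 6 erythroid markers Rhag (1.61) and Slc4a1 (1.51) rose (0.64). None of 9 muscle markers passed (median -1.31), but their summed level ranged from 8.71 to 1489 scaled RPKM between libraries. Against WT, 10 of 12 osteoclast markers rose in VitC+/- (median 1.83), 2 of 14 osteoblast markers (Bglap and Bglap2) fell (-0.67), and of 9 osteocyte markers Phex fell (-0.92) and Irx5 rose (1.56).

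Genes that act on SIBLING proteins were read next, again between VitC+ and VitC+/-. Of 8 tested receptor genes (integrin chains and Cd44) only Itga5 passed, higher by 1.61 on the log2 scale (limma adjusted p = 0.00826), and the median of the list was 0.29. Of 12 tested kinases, proteases and phosphatases 1 fell and 3 rose (median 0.41). Phex, an endopeptidase of bone cells that binds SIBLING fragments, fell by 2.56 on the log2 scale (limma adjusted p = 0.00185). The matrix proteases Mmp9 (1.37, limma adjusted p = 0.0111) and Ctsk (1.29, 0.0210) and the proprotein convertase Furin (1.09, 0.00302) rose. Ctsk read 913, 972 and 1015 scaled RPKM in VitC+ and 2710, 1438 and 3383 in VitC+/-, with replicate 2 the lowest of its group as for Spp1. Acp5, the osteoclast phosphatase that acts on osteopontin, differed by 0.72 (limma adjusted p = 0.147).

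Further genes of mineralization were read in the same way. Of 10 mineral and phosphate genes 3 fell and 1 rose (median -0.49). Smpd3 (-3.23, limma adjusted p = 0.0166), a sphingomyelinase needed for mineralization, Phospho1 (-1.84, 0.0123), the matrix-vesicle phosphatase, and Phex fell, whereas the phosphate carrier Slc20a1 rose (1.08, 0.0122). Of 13 transcription factors of the osteoblast lineage 3 fell and 1 rose (median -0.67), among them Dlx3 (-2.15, limma adjusted p = 0.0419), Mef2c (-1.33, 0.0235) and Fosl2 (0.78, 0.0311). Of 16 other noncollagenous matrix genes Bglap, Bglap2 and the proteoglycan Dcn (-2.67, limma adjusted p = 0.010) fell and Thbs2 (2.71, 0.0262) rose, with a median of -0.07. Pkd2, the gene next to Spp1, differed by 0.35 between VitC+ and VitC+/- (limma adjusted p = 0.395) but rose against WT by 1.24 (0.00819), from 5.11, 3.48 and 3.02 to 8.76, 7.23 and 13.9 scaled RPKM. Tet2 itself was higher in VitC+/- than in VitC+ by 0.98 (limma adjusted p = 0.0153).

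Over the 9 VitC libraries the genes most alike in log2 level were Ctsk (Pearson r 0.991), Cyp4v3 (0.987) and Slc6a8 (0.986) for Spp1, and Ust (0.967), Sybu (0.951) and Kank1 (0.948) for Dmp1. For Ibsp they were Tnc (0.978), Map4k3 (0.974) and Srpx2 (0.968), and for Mepe Fam13c (0.959), Hoxa7 (0.933) and Tubg2 (0.927). Among the members the coefficient was 0.850 for Ibsp with Spp1, 0.746 for Dmp1 with Mepe and 0.270 for Dmp1 with Spp1. The other pairs gave 0.633 (Ibsp with Mepe), 0.583 (Dmp1 with Ibsp) and 0.573 (Mepe with Spp1). Among 12585 genes Ibsp ranked only 776 in likeness to Spp1, and Mepe 444 in likeness to Dmp1. These coefficients describe 9 libraries in 3 groups, which share group differences and depth.

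In the Tet knockout femurs the fitted means of Dmp1, Ibsp and Spp1 lay on the same side, lower in Tet1/2 cKO, and none passed the test. Values here are the deposited normalized counts, which are not per length, so that genes are not compared in level. Dmp1 read 7093, 12068 and 7827 normalized counts in Ctrl and 2833, 5823 and 5067 in Tet1/2 cKO. Ibsp read 25652, 67401 and 33808 against 10298, 20168 and 17074. Spp1 read 70974, 115832 and 74244 against 30172, 51980 and 47467. For these 3 genes every Tet1/2 cKO library was below every Ctrl library, which held in either direction for 17.4% of all genes.

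The log2 differences, on log2(count + 1) with limma over 12 libraries and 16780 genes, were -1.0 for Dmp1 (SE 0.51, 95% interval -2.12 to 0.11), -1.35 for Ibsp (SE 0.54, -2.54 to -0.16) and -1.01 for Spp1 (SE 0.44, -1.98 to -0.04). The limma adjusted p was 0.723 for each (unadjusted 0.0740, 0.0296 and 0.0419), and none passed. Mepe read 2200, 550 and 2160 normalized counts in Ctrl and 1490, 2482 and 820 in Tet1/2 cKO, a difference of 0.07 (95% interval -2.33 to 2.47, limma adjusted p = 0.989). Over all genes 0% passed in limma, 847 had an unadjusted p under 0.05, and DESeq2 and edgeR on the recovered reads called 11 and 0. Signs of Dmp1, Ibsp and Spp1 were negative in all 14 alternatives.

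Deletion of Tet1 or Tet2 alone moved no member past the test. Dmp1 read 4928, 8571 and 12520 normalized counts in Tet1 cKO (log2 difference -0.11) and 19986, 4962 and 14637 in Tet2 cKO (0.37). Spp1 read 71641, 44098 and 49802 in Tet1 cKO (-0.65) and 96252, 41558 and 134242 in Tet2 cKO (-0.06). Ibsp differed by -0.36 and -0.31, and Mepe by 0.71 and 0.61. All overlapped Ctrl and had a limma adjusted p of 1.00, and 0.0119% of genes passed in Tet1 cKO and likewise 0.0119% in Tet2 cKO. Tet2 cKO replicate 2 was the lowest Tet2 cKO library for all 4 members, with 255 normalized counts of Mepe against 9064 and 3988 in its group mates.

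**Figure D3:**
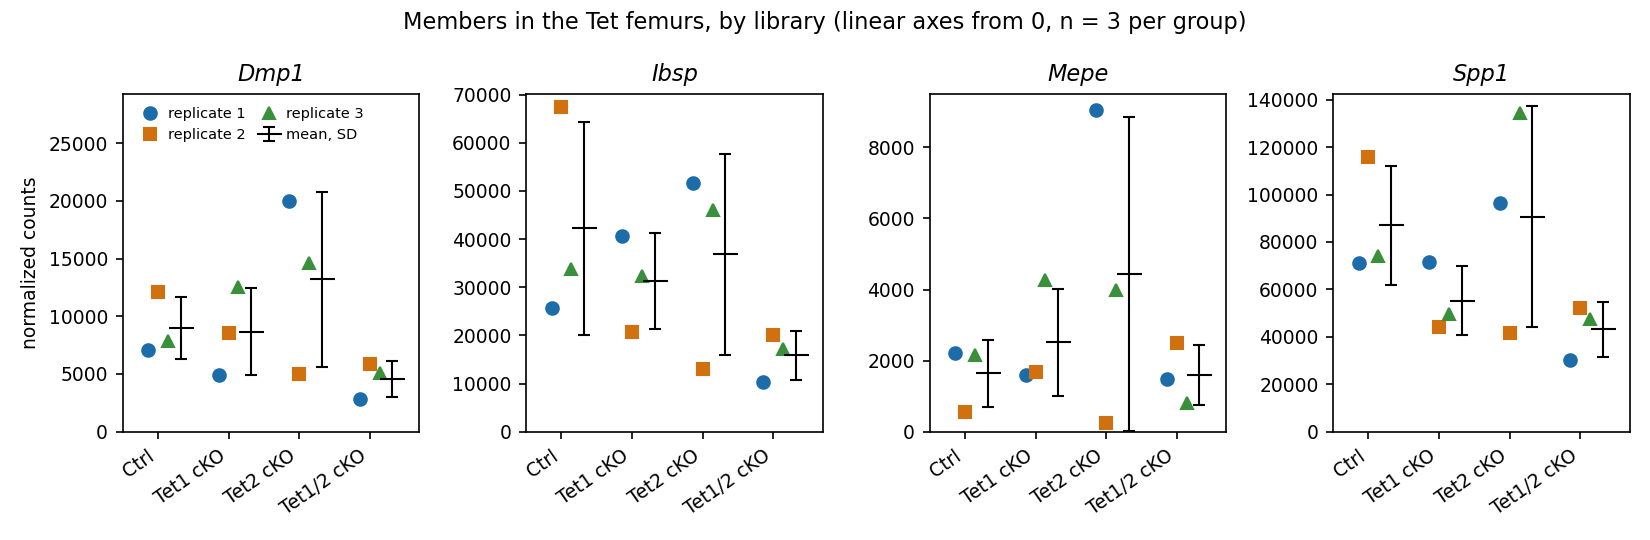
Normalized counts of each member in every femur library of the Ctrl and the 3 Tet knockout groups, with a bar for the mean ± SD (n = 3). Tet1/2 cKO libraries lie below all Ctrl libraries for Dmp1, Ibsp and Spp1, and no difference from Ctrl passed the test.

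The Dmp1 to Spp1 log2 ratio was -3.28 ± 0.04 in Ctrl and -3.27 ± 0.13 in Tet1/2 cKO (n = 3). In Tet1 cKO it was -2.74 ± 0.99 and in Tet2 cKO -2.84 ± 0.50. The Tet2 cKO libraries lay narrowly above all Ctrl libraries (lowest -3.20 against highest -3.25), and how often ratios of other genes do so was not counted. Osteoblast markers were below 0 in 14 of 14 cases in Tet1/2 cKO (median log2 difference -1.21, none passed), with sums of 981573 to 1284879 normalized counts in Ctrl and 307366 to 682403 in Tet1/2 cKO. Osteoclast markers had a median of -0.74 and osteocyte markers of -0.54. Osteocyte markers summed to 15272 to 19611 normalized counts in Ctrl and 15748 to 24673 in Tet1/2 cKO. The lowest medians were those of muscle (-3.82) and chondrocyte markers (-3.53), and neutrophil (0.71) and erythroid markers (0.43) lay above 0. No marker of these lists passed. Of the other lists the receptors had a median of -0.07, the kinases, proteases and phosphatases -0.68, the transcription factors -0.61, the mineral and phosphate genes -0.64 and the other noncollagenous genes -1.06, and none of their members passed. Muscle markers summed to 120412 to 518239 normalized counts in Ctrl and 3522 to 439706 in Tet1/2 cKO. The part of cell content in the members' values was not tested. Over these 12 libraries Ibsp and Spp1 were again alike (r 0.911), whereas Dmp1 with Spp1 gave 0.743. The most similar gene was Sema7a for Dmp1 (0.966), Slc46a1 for Ibsp (0.971), Sost for Mepe (0.933) and St6galnac4 for Spp1 (0.947).

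5hmC over the cluster was then read as peaks, which MACS2 had called on the pooled libraries of a group, so that no replicate error exists and no test was run. The region from 50 kb before Dmp1 to 50 kb after Spp1, chr5:104152617-104491053, measures 338 kb and holds 7 annotated genes. Peak sequences from it are shown for 2 places, at 300 bases around the peak centre, with CG in capitals. The peak past Dmp1 had the highest fold enrichment of the region in VitC+ femurs, and the Dmp1 intron peak lies in a stretch of unusual background described further on.
Peak past Dmp1, between genes, chr5:104214791-104215090: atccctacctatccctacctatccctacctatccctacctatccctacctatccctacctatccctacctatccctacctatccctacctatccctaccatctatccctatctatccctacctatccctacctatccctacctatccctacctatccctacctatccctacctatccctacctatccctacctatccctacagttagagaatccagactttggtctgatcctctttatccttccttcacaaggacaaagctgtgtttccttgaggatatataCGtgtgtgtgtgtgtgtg
Dmp1 intron peak, chr5:104203297-104203596: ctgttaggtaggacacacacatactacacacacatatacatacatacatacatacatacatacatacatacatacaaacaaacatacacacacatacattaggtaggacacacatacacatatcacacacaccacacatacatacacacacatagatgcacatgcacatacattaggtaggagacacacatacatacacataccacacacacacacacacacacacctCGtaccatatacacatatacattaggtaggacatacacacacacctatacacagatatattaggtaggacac

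The peak past Dmp1 (fold 15.3 in VitC+/- and 17.4 in VitC+) held 1 CG and 20 copies of CCCTA, 33.3% of its bases, and was also listed at fold 9.78 in Ctrl, 9.34 in Tet1/2 cKO and 21.6 in MC3T3-E1 cells without VitC. MC3T3-E1 cells with VitC also had a strong peak between Dmp1 and Ibsp within 30 kb of the Dmp1 start (fold 19.1). The Dmp1 intron peak (3.19 in VitC+/- and 2.1 in VitC+) held 1 CG and 76 copies of CA, 50.7% of its bases. A further strong peak lay 5.29 kb before Ibsp (fold 13.2 and 14.2) with 3 CG. Peak bases over the region held 10.0 CG per kb in VitC+/- and 11.0 in VitC+, against 10.3 in the whole region and 9.14 on chromosome 5.

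After VitC withdrawal the region held 137 peaks covering 76.1 kb, against 156 peaks and 98.0 kb in VitC+ femurs, a log2 ratio of covered length of -0.36 (1 kb added to both lengths, as in all such ratios). Over 20260 gene windows of the same lists the median ratio was -0.09, with quartiles of -0.33 and 0.23, and 22.0% lay lower than the cluster. Each gene window reaches 30 kb to both sides of a protein-coding gene's start. The region is longer than such a window, so its place among them is a rough guide, here and in the later comparisons. Within 30 kb of each start, covered length was 15.4 against 16.5 kb for Dmp1 (log2 -0.09), 14.0 against 19.9 kb for Ibsp (-0.48), 13.9 against 20.6 kb for Mepe (-0.53) and 15.3 against 19.7 kb for Spp1 (-0.34). The order of Dmp1 and Spp1 rested on peaks of unusual background at the Dmp1 start, since without them Dmp1 had the lower ratio (-0.54). No member window was lower by 2-fold, a size that 5.90% of gene windows reached.

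Within gene bodies the peaks covered 4.2 against 4.1 kb of Dmp1, where several of the peaks of unusual background lie, 3.8 against 6.1 kb of Ibsp, 2.0 against 3.0 kb of Mepe and 1.6 against 2.2 kb of Spp1. Most peaks lay between genes, 75.2% after withdrawal and 74.4% in VitC+ femurs. Of the 137 peaks after withdrawal 130 (94.9%, against 73.7% of the whole list) shared at least 1 base with the VitC+ list. In the other direction 123 of 156 peaks (78.8%, against 77.8%) did so. Close to the starts, VitC+/- had a weak Spp1 peak 0.275 kb before the start (fold 2.59) that VitC+ did not list, and both had one 1.21 kb before it (2.26 and 3.71). Mepe had a peak 0.343 kb before its start in VitC+/- (3.58) and 0.609 kb before it in VitC+ (3.23).

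The Dmp1 start stood apart in both VitC lists by its local background, the expected pileup that MACS2 divides by, which was worked out here from the listed fold and p-value. In VitC+/- 6 peaks at chr5:104195973-104207050 had a background of 59.8 to 111 reads, and in VitC+ 6 peaks at chr5:104196067-104207117 had 58.7 to 112. Only 1 input library is listed for the VitC femurs, so both lists may share it as control and may not be separate readings. The list medians were 6.32 and 5.94, and only 0.0320% and 0.0215% of all peaks reached 50. The next highest values, 23.2 in VitC+/- and 24.4 and 36.9 in VitC+, also lay within 7 kb of the Dmp1 start, and no peak of the region farther away passed 14.7 in VitC+/- or 12.8 in VitC+. At the same place Ctrl femurs had 10.6 to 13.9 and Tet1/2 cKO femurs 3.05 to 3.72. This stretch runs from 6.64 kb before to 4.43 kb after the Dmp1 start in VitC+/-. Without the peaks within 7 kb of the start, an alternative chosen after seeing the data, the Dmp1 window ratio was -0.54 (7.76 against 11.7 kb), close to Ibsp and Mepe and below Spp1 (-0.34), and the cluster ratio was -0.44. The study also bred Gulotm1Mae mice with a transgene driven by the Dmp1 promoter, whereas the labels of these femurs name none. Whether these femurs carried it was not tested.

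**Figure D4:**
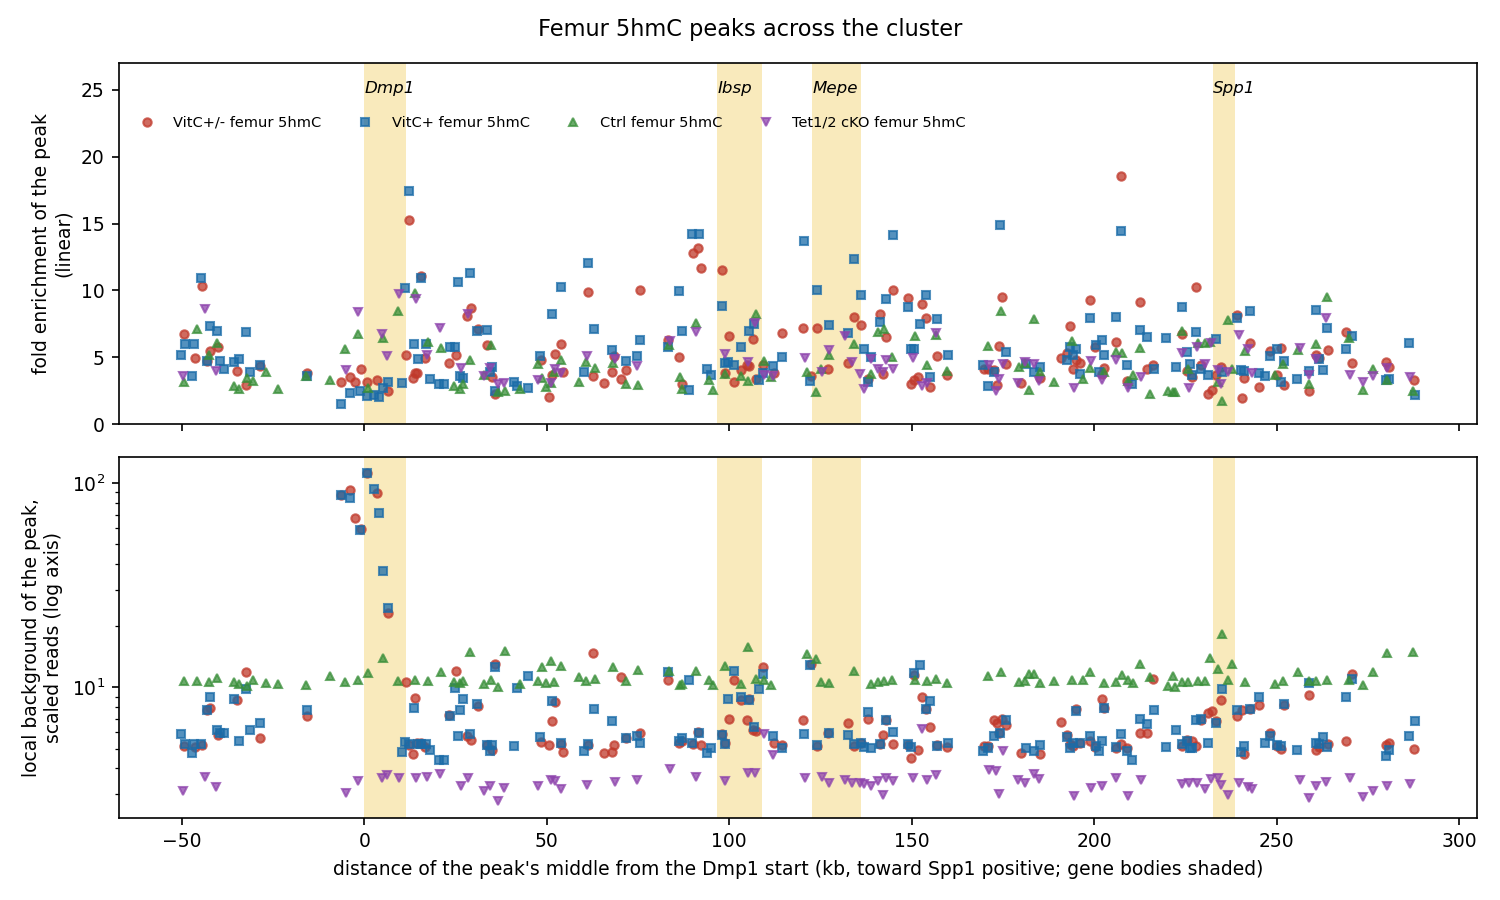
Fold enrichment (upper panels, linear axis) and local background in reads (lower panels, log axis) of every 5hmC peak by distance in kb from the Dmp1 start, for the 4 femur lists, with gene bodies shaded. In VitC+/- and VitC+ the 6 peaks around the Dmp1 start have a background of 58.7 to 112, and peaks more than 7 kb from that start lie at or below 14.7.

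Tet1/2 cKO femurs held 81 peaks over 78.9 kb of the region and Ctrl femurs 108 over 138.6 kb, a log2 ratio of -0.80. The median local background was 3.45 reads over the Tet1/2 cKO list and 10.7 over the Ctrl list. The part of this difference, or of depth, in the covered lengths was not tested. The median of 18130 gene windows was lower, at -1.04, and 68.7% of windows lay lower than the cluster. Around the starts the ratio was -0.48 for Dmp1 (17.2 against 24.3 kb), -0.51 for Ibsp (15.6 against 22.7), -0.41 for Mepe (23.8 against 32.0) and -1.05 for Spp1 (11.7 against 25.2). Spp1 alone among the members was lower by 2-fold or more, as were 71.5% of gene windows. All 81 Tet1/2 cKO peaks overlapped a Ctrl peak (96.8% over the list), and 73 of 108 Ctrl peaks (67.6%, against 46.7%) overlapped a Tet1/2 cKO peak. A peak 0.653 kb before the Spp1 start in Ctrl (fold 6.16) had a counterpart 0.603 kb before it in Tet1/2 cKO (6.09).

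In MC3T3-E1 cells grown without VitC the region held 84 peaks over 51.4 kb, against 124 over 103.6 kb with VitC, a log2 ratio of -1.0. The median of 21562 gene windows was -0.36, and 30.4% of windows lay lower than the cluster. The ratio was -0.50 around Dmp1 (10.5 against 15.3 kb), -0.88 around Ibsp (11.0 against 21.1), -0.96 around Mepe (9.79 against 20.0) and -1.17 around Spp1 (7.46 against 18.1). In length itself the Mepe and Spp1 windows were lower by 2-fold or more, as 37.3% of gene windows were. The Spp1 body held 5 peaks with VitC and 0 without. The peak before the Mepe start reached fold 10.3 with VitC and 3.85 without, yet the strongest peak without VitC lay 1.98 kb before Mepe (28.2). Of the 84 peaks 64 (76.2%, against 33.6% of the list) were shared, and of the 124 peaks 62 (50.0%, against 36.0%). In this comparison and in that of Tet1/2 cKO the Dmp1 window kept more of its covered length than the Spp1 window, whereas the order after VitC withdrawal turned with the peaks around the Dmp1 start.

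**Figure D5:**
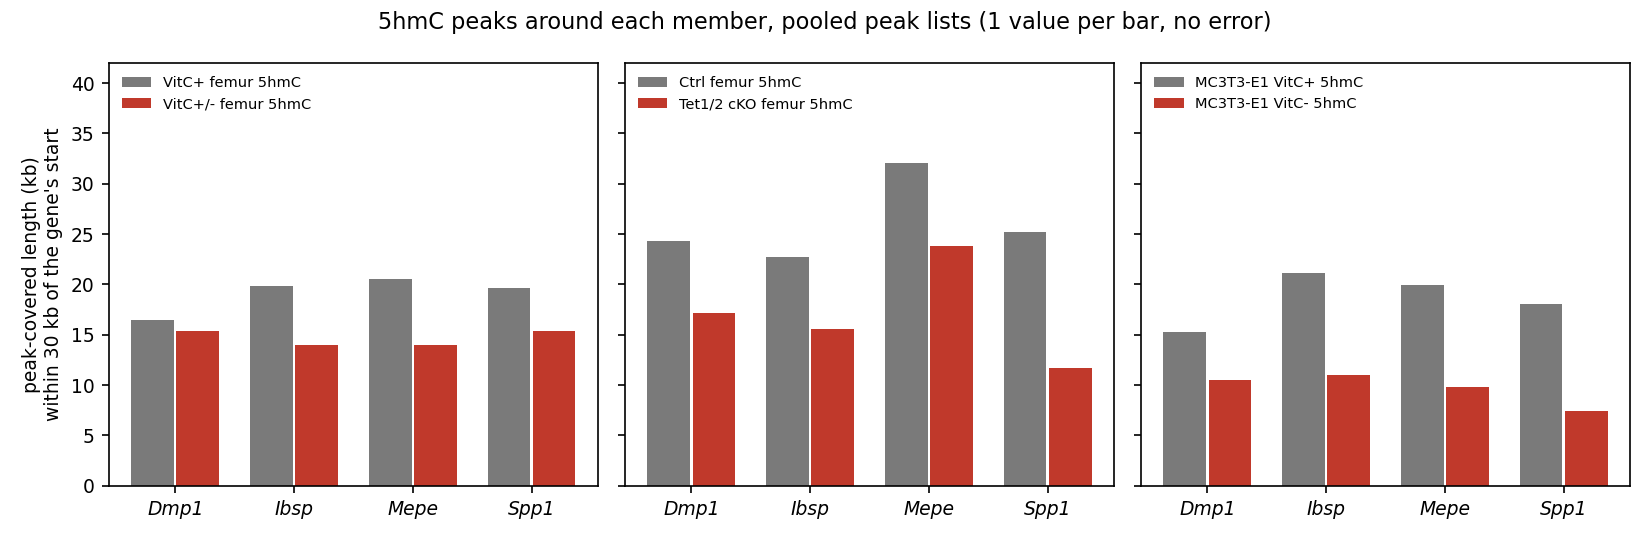
Length in kb covered by 5hmC peaks within 30 kb of each member's start, grey for VitC+, Ctrl and MC3T3-E1 VitC+ and red for VitC+/-, Tet1/2 cKO and MC3T3-E1 VitC-. Spp1 shows the largest loss of length among the members in Tet1/2 cKO (25.2 to 11.7 kb) and MC3T3-E1 (18.1 to 7.46 kb), and Dmp1 goes from 16.5 to 15.4 kb after VitC withdrawal, or from 11.7 to 7.76 kb without the peaks within 7 kb of its start.

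Of the repressive histone marks only H3K27me3 was sparse here. H3K9me3 peaks covered 10.2% of the region without VitC and 4.92% with it. H3K27me3, the mark of Polycomb repression, gave 1 peak without VitC (412 bases in a Dspp intron, fold 2.27) and 0 with VitC. H3K9me3, a mark of heterochromatin, gave 15 peaks over 34.4 kb without VitC and 9 over 16.7 kb with it, a log2 ratio of 1.01 against a median of 0.49 over 11702 gene windows, of which 76.7% lay lower. The Dmp1 window held 11.9 against 4.47 kb (1.23), higher by 2-fold or more as in 50.3% of gene windows. Ibsp held 7.41 against 3.92 kb (0.77) and Mepe 4.40 against 3.0 kb (0.44). Spp1 held 0.909 against 0 kb (0.93), which was also higher by 2-fold or more. Neither Dmp1, Ibsp nor Spp1 had an H3K9me3 peak in its gene body, and Mepe had 1 in each list. Repeats made up 72.0% of the covered bases without VitC and 89.6% with it, against 30.2% of the region. No H3K9me3 peak of the region reached a -log10 q of 5, and the labels and methods give different culture times for these samples.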

How the data were processed

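Femur RNA was sequenced from 9 VitC mice and 12 Tet mice. The authors mapped reads with STAR 2.6.0b-1 to mm10, counted them with featureCounts 1.6.3 and deposited RPKM per gene for the VitC femurs (the methods name cufflinks for FPKM, and no tool is stated for RPKM) and DESeq2 normalized counts, a scaled signal, for the Tet femurs. Total depth is not given with RPKM. The relative depth was recovered from the smallest steps, and Tet libraries held 28597536 to 49788434 reads (100% of values whole within 0.05 of a read). Tet1 cKO replicate 3 was not claimed as reads and was left out of the count fits with edgeR and DESeq2. For 5hmC and histone marks the authors mapped with BWA 0.7.15.1 and deposited MACS2 peaks with fold enrichment ratio, -log10 p and -log10 q.

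Here RPKM were scaled by median-of-ratios factors. Genes at 1 RPKM in 3 libraries (pseudocount 0.5) or 10 normalized counts in 3 libraries (pseudocount 1) were fitted with limma 3.58.1 (R 4.3.3) over all groups of a set, adjusted over all genes at 0.05. edgeR 4.0.16 and DESeq2 1.42.0 on recovered reads were alternatives. Covered lengths were compared with 1000 bases added to both. The fits were tested on simulated data. Names are the members, their neighbours, up to 4 genes per list with the largest difference past the threshold, and the 3 most alike genes. The members and lists were chosen with earlier results of these data known. 26 gene names with 69 entries were kept as separate entries. RNA libraries were unstranded, so a gene and its antisense partner cannot be told apart. Some genes and sequences are not reported here.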

Additional observations from a re-analysis of the deposited data

Results flagged for a closer look

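The local background of the 5hmC peaks within 7 kb of the Dmp1 start reached 111 reads in the VitC+/- list and 112 in the VitC+ list. This column enters no comparison of gene expression, and it drew attention because 99% of the peaks of these lists lay below 14.8 and 14.3, and the Ctrl femurs reached 13.9 at this place. Over the whole genome 128 of 399599 and 80 of 371568 peaks reached 50 reads. They were spread over 117 and 69 bins of 1 Mb, and outside the Dmp1 bin no bin held more than 2 or 3 of them.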

How the results depend on the processing

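Of 452 alternative values 374 were counted as the same as the main value. For member differences this means the same direction and side of the threshold. For counts of calls, peak ratios and the ratio of Dmp1 and Mepe to Ibsp and Spp1 it means within a set distance of the main value. Between VitC+/- and VitC+, the count of called entries was 876 without scaling, 254 without WT replicate 3 and VitC+ replicate 1, and 504 to 1359 with 1 library left out. Dmp1 was -1.15 without scaling and -1.43 without both doubted libraries (neither passed) and -1.43 to -1.17 with 1 left out. Spp1 was 1.28 without the filter and 1.26 without both (neither passed) and 1.13 to 1.57, and Ibsp -0.089 without both and -0.18 to 0.78. Against WT the count was 1646 without both and 2268 to 4065. Ibsp was 1.84 without the filter and 1.89 without both (neither passed) and 1.47 to 2.43, Dmp1 0.14 to 0.63 and Mepe 0.85 to 1.78.

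WT against VitC+ gave 17 calls with upper-quartile scaling, 10 with only these 6 libraries, 0 to 619 with 1 left out and 774 with a replicate block, in which Dmp1 (-1.57), Mepe (-1.97) and Spp1 (-1.64) passed. With 1 left out they were -1.90 to -1.41, -2.52 to -1.60 and -1.78 to -1.44. The replicates share only a number, since same-numbered deviations correlated at -0.07 to 0.37 (VitC+ and VitC+/-) and -0.08 to 0.46 (WT and VitC+).

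Tet1 cKO gave 0 calls with the replicate block or edgeR, 13 with DESeq2 and 0 to 4 with 1 left out. The edgeR and DESeq2 fits held no Tet1 cKO replicate 3. Tet2 cKO gave 0 with the block or only its 6 libraries, 1 with edgeR, 15 with DESeq2 and 0 to 4. Tet1/2 cKO gave 11 with DESeq2. Signs turned for Mepe in Tet1 cKO (-0.015 with edgeR), Spp1 in Tet2 cKO (0.032 with edgeR, 0.059 with DESeq2) and Mepe in Tet1/2 cKO (-0.056 and -0.033). With 1 left out, Tet1 cKO ranged from -0.43 to 0.24 (Dmp1) and -0.66 to 0.034 (Ibsp), Tet2 cKO from -0.038 to 0.97 (Dmp1), -0.67 to 0.33 (Ibsp), -0.45 to 2.12 (Mepe) and -0.42 to 0.42 (Spp1), and Mepe in Tet1/2 cKO from -0.59 to 0.48. At a -log10 q of 5 or more the H3K9me3 ratio was 0, since no peak was left. The cause of the other shifts was not tested.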
